A study of Mus musculus with 6 samples.

Results

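Pax3, Pax7, Six4, Six5, Eya1, Eya2 and Dach1 are regulators of muscle stem and progenitor cells, taken here as 7 of 21887 protein-coding genes and examined for DNA captured with the long non-coding RNA LncMyoD. Each gene was followed over its RefSeq span and 20 kb on either side, and a peak of one replicate list was called shared where it overlapped a peak of the other list by 1 bp or more. The data came from primary C57BL/6 mouse myoblasts kept in 2% horse serum for 2 days, which the labels call differentiated myotubes. In ChIRP-seq, biotin-labelled DNA probes pull an RNA out of sonicated nuclei and the DNA attached to it is sequenced. Odd-numbered probes, even-numbered probes and input DNA were sampled with 2 replicates each, 6 samples in all, with no other genotype or treatment. The peaks were deposited as 1 list per replicate, so the pools and the input could not be set against each other, and a DNA assay gives no marker levels with which to check the cell type.

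PAX3 and PAX7 are paired-box transcription factors that mark muscle progenitors, and PAX7 is needed to maintain the satellite cells of adult muscle. SIX4 and SIX5 are homeodomain factors of a family that binds the MEF3 element of muscle genes, EYA1 and EYA2 belong to their coactivators and carry a phosphatase domain, and DACH1 is a corepressor that works with the same partners. The network acts upstream of the myogenic factors, and Pax7 is a textbook gene of the undifferentiated state.

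The list of replicate 1 held 157214 peaks and that of replicate 2 held 179630. Fold, the authors' ratio of the signal at a peak's summit to the background estimated by their peak caller, had a median of 8.08 in replicate 1 and 8.11 in replicate 2. Of these peaks, 67.2% in replicate 1 and 57.8% in replicate 2 were shared. Shared peaks joined into 97493 regions, ranked here (place 1 is the strongest) by averaging over both lists the −log10 q percentile that the region's top peak reached. Whether the replicates were separate cultures is not stated in the labels, so differences between the lists may be technical.

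All 7 genes had a shared region in their window, and so did 89.6% of protein-coding genes. The windows covered 1192 kb in all and held 40 shared regions, 32 of them touching a gene span and 8 in the flanks. Gene spans made up most of that width, so these counts do not by themselves show a preference for the genes over the flanks. Eya2 alone held 17 of the 40. Eya1 held the strongest one in either list, 52.9-fold in replicate 1 and 61.5-fold in replicate 2. Counted over gene spans alone, 6 of the 7 genes had a region, against 56.4% of protein-coding genes. With 5 kb on either side the count was also 6, against 70.3%, and Six4 was the gene without one both times. Both percentages are over genes of all lengths, and long genes hold more regions, so they do not by themselves show an excess. No count matched by length was made for these narrower limits. For the full windows, 98.1% or more of genes of similar window width had a region for Pax3, Pax7, Eya1, Eya2 and Dach1. The share was 89.2% for Six4 and 83.3% for Six5.

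Start sites were examined where the RefSeq promoter table (GRCm38.p6, the assembly behind mm10) held the gene, which it did for Pax7, Six4, Six5 and Dach1, with a pair of start sites for Six4. Dach1 was the only one of them with a shared region over its promoter, counted as 250 bases before and 50 after the start, against 9.92% of 21263 promoters of protein-coding genes. The 250 bases before the start are printed for Dach1, whose promoter lay under a peak, for Six4, which had a MEF3-type match and no peak nearby, and for Pax7, whose start lay in a long stretch without peaks. Capitals mark the letters TCAGGTT on either strand, the core of the MEF3 element, which the family of SIX4 binds. All 3 genes lie on the minus strand, and the sequences read 5′ to 3′ on that strand.
Dach1, chr14:98169766-98170015: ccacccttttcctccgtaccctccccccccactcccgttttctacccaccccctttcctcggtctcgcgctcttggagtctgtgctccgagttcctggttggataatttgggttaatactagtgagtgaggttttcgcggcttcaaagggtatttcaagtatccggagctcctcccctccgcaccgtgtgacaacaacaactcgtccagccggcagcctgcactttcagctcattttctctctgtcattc
Six4, chr12:73113246-73113495: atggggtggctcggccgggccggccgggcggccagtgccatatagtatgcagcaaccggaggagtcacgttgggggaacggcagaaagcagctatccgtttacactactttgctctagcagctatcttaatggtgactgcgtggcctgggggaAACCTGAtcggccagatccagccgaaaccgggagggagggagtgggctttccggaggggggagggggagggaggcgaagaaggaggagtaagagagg
Pax7, chr4:139832969-139833218: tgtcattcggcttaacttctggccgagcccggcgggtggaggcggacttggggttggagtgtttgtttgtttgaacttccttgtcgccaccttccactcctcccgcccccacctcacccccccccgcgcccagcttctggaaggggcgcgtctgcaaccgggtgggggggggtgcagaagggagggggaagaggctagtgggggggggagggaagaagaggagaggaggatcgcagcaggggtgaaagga

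The Dach1 stretch lay whole, all 250 bases, under a 13.9-fold peak of replicate 2, while the 13.2-fold peak of replicate 1 ended 171 bp short of it, inside the gene. The Six4 stretch, that of the start site at 73113245, was 8563 bp from the nearest peak of replicate 2 (3.71-fold) and 17337 bp from the nearest of replicate 1 (4.63-fold). Its match begins 97 bases before the start, and 3.30% of the 21263 promoters hold TCAGGTT in the same 250 bases. The Pax7 stretch was 13813 bp from the nearest peak of replicate 2 and 21542 bp from the nearest of replicate 1. At Six5 the nearest peaks lay 1388 bp away in replicate 2 and 1505 bp away in replicate 1, within the gene. The E-box letters CANNTG, the general site of MyoD and other bHLH factors, were in none of the 5 stretches of these 4 genes and in 62.8% of all promoters. The narrower E-box CAGCTG (12.1% of promoters), a palindromic double homeodomain site (0.315%) and a MEF2-type site (3.06%), both searched by their letters on both strands, were in none of the 5 either. A match is a run of letters and not a measured site, and the 2 Six4 stretches overlap each other.

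Pax3, chr1:78101267-78197136, held 5 peaks of replicate 1 and 10 of replicate 2, which formed 2 shared regions. Both lay inside the gene and close to its ends. The region chr1:78102207-78104298, 940 bp from the lower-coordinate end and 2092 bp wide, had folds of 34.5 in replicate 1 and 28.7 in replicate 2 and took place 11513. The summits of its best peaks were 20 bp apart. The region chr1:78196032-78196385, 751 bp from the higher-coordinate end, was weaker, with folds of 8.02 and 15.8 in replicates 1 and 2. Between them lay 91733 bp without a shared region. Replicate 2 had peaks of 21.9-fold inside the gene and 24.9-fold at 16205 bp beyond the higher end, each more than 10 kb (13086 and 16602 bp) from any peak of replicate 1. Replicate 1 in turn had 3 unshared peaks, all weaker, from 4.41-fold to 7.71-fold. Each list thus had peaks at Pax3 that the other lacked, and only peaks near the gene's ends were in both.

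Pax7, chr4:139737059-139833530, had a window of almost the same width as that of Pax3 (136 kb each) and held 14 peaks of replicate 1 and 16 of replicate 2. They formed 7 shared regions, 5 in the gene and 2 in the flank below it. The strongest, chr4:139775679-139777013, lay 38620 bp inside the lower end with folds of 26.1 in replicate 1 and 43.0 in replicate 2, at place 10861. A group of 3 weaker regions stood between 139756593 and 139764077, with folds from 12.7 to 15.7 in replicate 1 and from 6.98 to 10.2 in replicate 2. Between the first pair of this group replicate 2 had a 26.2-fold peak, which came within 35 bp of a replicate 1 peak without overlapping it. The last region inside the gene, chr4:139810779-139811427, had folds of 10.7 and 5.87. Beyond it no peak of either list lay in 35.6 kb, from 139811428 to 139847030, a stretch that holds the start site at 139832968. The peaks inside Pax7 thus all lay away from its start.

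**Figure D1:**
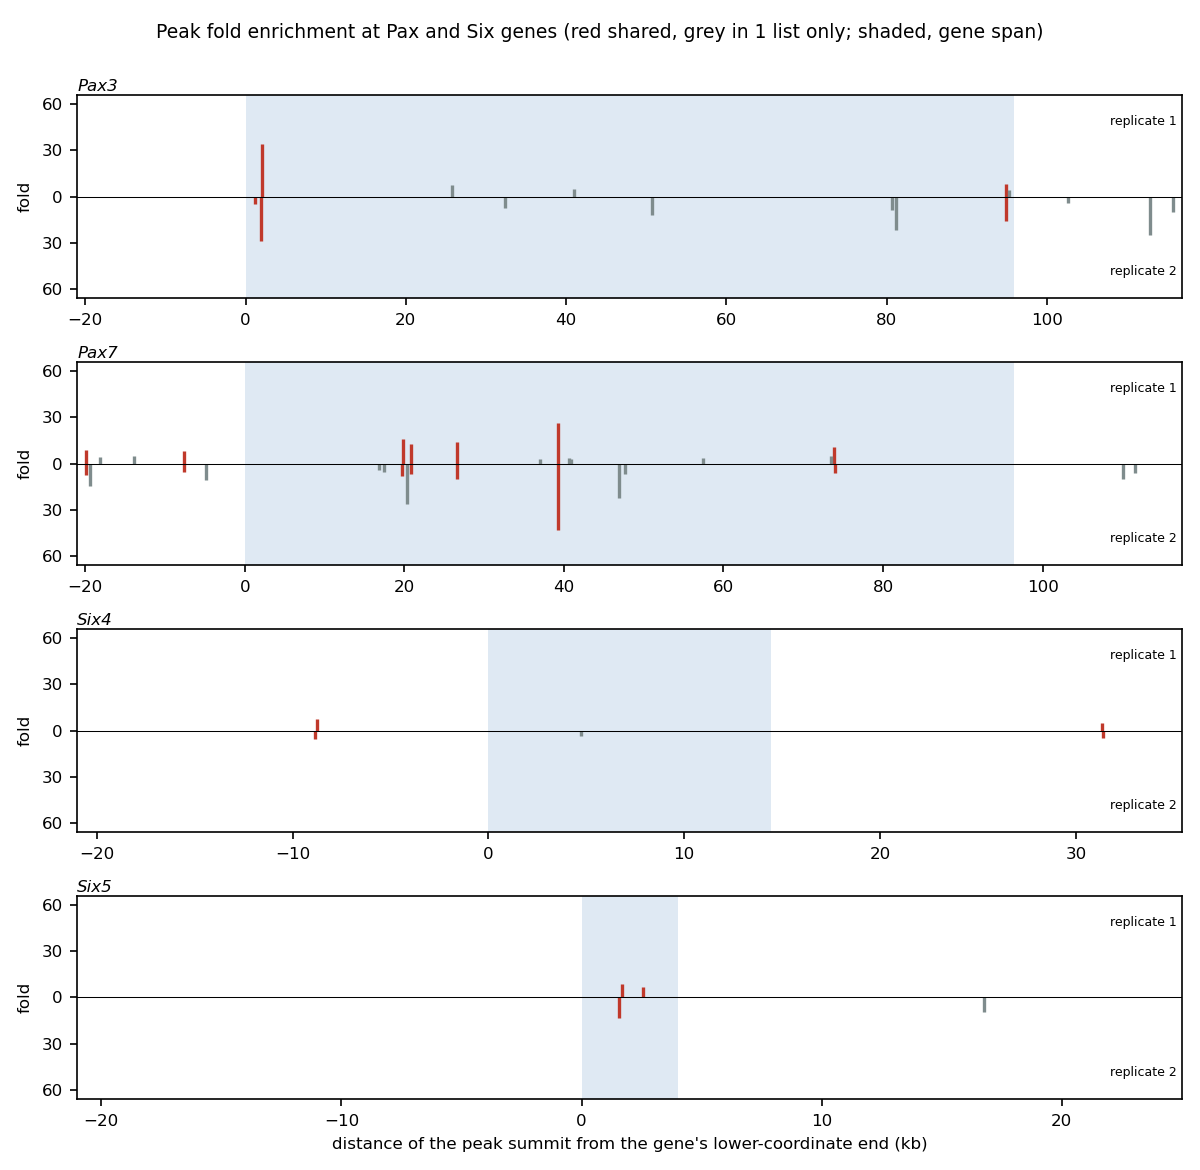
Peaks at Pax3, Pax7, Six4 and Six5, placed by the distance of their summit from the gene's lower-coordinate end in kb, with fold drawn upwards for replicate 1 and downwards for replicate 2. Red lines are shared peaks, grey lines are peaks of 1 list, and the shading is the gene span. Pax3 has shared peaks near both ends, Pax7 has its tallest pair in the gene body (26.1 and 43.0), and the Six4 span holds no shared peak.

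Six4 and Six5, the shortest of the 7 genes, had the fewest peaks. Six4, chr12:73099609-73114031, held 2 peaks of replicate 1 and 3 of replicate 2 in its window. Its 2 shared regions lay outside the gene. The region chr12:73090450-73091092, 8517 bp below the gene, had folds of 7.71 and 5.56 in replicates 1 and 2. The region chr12:73130832-73131129, 16801 bp above it and inside the neighbouring gene Mnat1, had folds of 4.63 and 4.81 and place 92449, near the bottom of all regions. The gene itself held only a 3.71-fold peak of replicate 2.

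Six5, chr7:19094544-19098549, is a short gene of 4006 bp and had 1 shared region, chr7:19095931-19097235, lying wholly within it. Replicate 1 showed peaks of 8.60-fold and 6.61-fold there, the first inside and the second overlapping a single 13.3-fold peak of replicate 2. The region took place 51087, about the middle of all shared regions. The only other peak in the window was one of 9.57-fold in replicate 2, over the neighbouring gene Bhmg1.

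Eya1, chr1:14168953-14311035, held 11 peaks of replicate 1 and 13 of replicate 2, in 4 shared regions. The strongest of all 40 regions, chr1:14163037-14165296, lay 3657 bp below the gene's lower end and was also the widest, at 2260 bp. It took place 2285 and joined 2 peaks of each list: 52.9-fold and 27.5-fold in replicate 1, and 61.5-fold and 4.63-fold in replicate 2. Inside the gene, chr1:14249805-14250707 had folds of 47.4 in replicate 1 and 16.2 in replicate 2, with summits 59 bp apart. The other 2 regions had folds of 7.79 and 10.2 (chr1:14157785-14158303) and of 6.61 and 4.56 (chr1:14187903-14188544). At the higher-coordinate end the lists came near each other without overlapping: replicate 1 had a 13.6-fold peak 160 bp beyond the end, and replicate 2 a 24.7-fold peak within the gene, 726 bp away from it. Eya1 thus joined some of the strongest shared signal of these genes to a number of regions below that of most genes of its size.

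Eya2, chr2:165595028-165771727, held 23 peaks of replicate 1 and 32 of replicate 2, and 17 shared regions, 16 of which touched the gene. The strongest was chr2:165608772-165610451, 13744 bp inside the lower end, with folds of 30.8 in replicate 1 and 50.04 in replicate 2, place 7019 and summits 6 bp apart. The next by place, chr2:165619133-165620432, had folds of 28.6 and 16.4. A region spanned the lower-coordinate end itself, chr2:165593445-165595066, with folds of 11.8 and 23.8. Only its replicate 2 peak reached the gene, and its replicate 1 peak ended 357 bp below it. Together with 2 weaker regions, the regions just described made a group of 5 between 165590429 and 165620432, followed by 48672 bp without a shared region. The other 12 were spread over the rest of the gene, up to chr2:165769995-165770786 at 941 bp from the higher end (8.95-fold and 11.1-fold). The folds of the 17 ran from 4.66 to 30.8 in replicate 1 and from 4.02 to 50.04 in replicate 2. One of them, chr2:165727636-165728294, also overlapped Gm29993, a long non-coding RNA gene within Eya2, with folds of 15.4 and 13.6.

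Dach1, chr14:97786846-98169765, the longest of the 7 genes at 383 kb, held 13 peaks of replicate 1 and 15 of replicate 2, and 7 shared regions. The strongest, chr14:97903937-97905290, had folds of 25.7 and 41.4 in replicates 1 and 2 and took place 8044. Here a single peak of replicate 1 lay across a pair of replicate 2 peaks of 41.1-fold and 41.4-fold. Another region followed 204 bp further on (6.98-fold and 10.3-fold). The region chr14:97994460-97994895 had folds of 13.6 and 27.2, with a weaker one 1030 bp beyond it (5.73-fold and 8.65-fold). Of the region over the start site described above, chr14:98169205-98170572, only the replicate 2 peak covered the start. The region had folds of 13.2 in replicate 1 and 13.9 in replicate 2, with summits 514 bp apart, the farthest of the 40. It also overlapped Gm33583, a long non-coding RNA gene that begins beside Dach1. From 97996314 to 98147646, 151.3 kb of the gene held no peak of either list. The signal of Dach1 was thus gathered at a few points of a long gene.

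**Figure D2:**
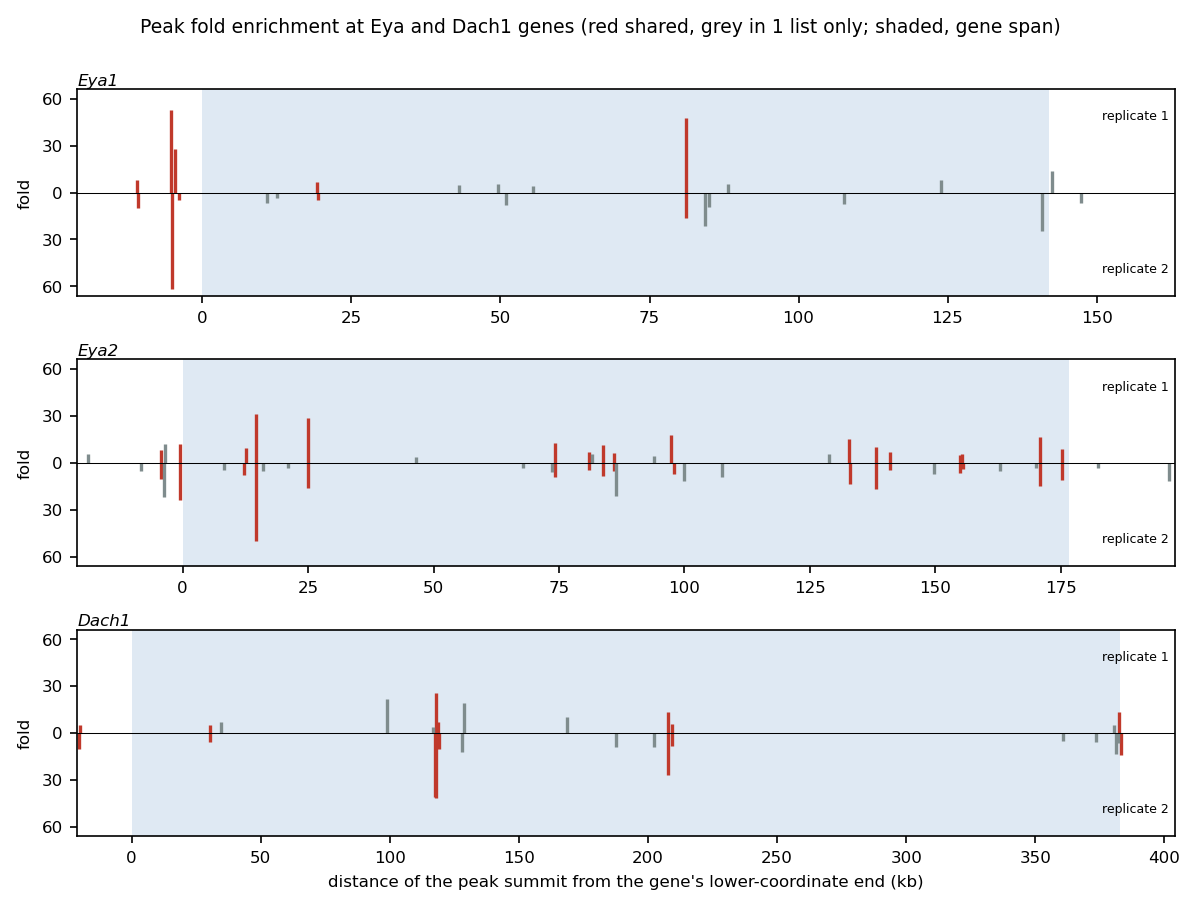
Peaks at Eya1, Eya2 and Dach1, drawn by summit distance from the lower-coordinate end in kb, with fold upwards for replicate 1 and downwards for replicate 2, red for shared peaks, grey for peaks of 1 list and shading for the gene span. Eya1 shows the tallest shared peaks (52.9 and 61.5) beside the gene, Eya2 has shared peaks along its length, and Dach1 has few over 383 kb.

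Long genes hold more regions, so the counts were divided by window width. Eya2 had 7.84 shared regions per 100 kb and Pax7 had 5.13, both above the median of all protein-coding genes, 4.27 (quartiles 2.24 and 6.66). The other 5 lay below it: Six4 had 3.67 per 100 kb, Six5 2.27, Eya1 2.20, Dach1 1.66 and Pax3 1.47. The 7 windows together had 3.35 per 100 kb, and 2.36 without Eya2. In peaks per 100 kb, Eya2 came first (10.6 in replicate 1, 14.8 in replicate 2), Pax7 followed (10.3 and 11.7) and Dach1 came last (3.07 and 3.55) in both lists. Among the remaining 4, Pax3 had 3.68 in replicate 1 and 7.36 in replicate 2, Eya1 6.04 and 7.14, Six4 3.67 and 5.51, and Six5 4.54 in each. Eya1 stood above Six4 and Six5 in both lists, but Six4 and Six5 rest on only 2 or 3 peaks per list. The place of Pax3 among them and the order of Six4 and Six5 changed from one list to the other. For Eya1, 43.5% of protein-coding genes had a lower peak density in each list. The share was 21.6% in replicate 1 and 30.6% in replicate 2 for Six4, and 29.1% and 22.1% for Six5.

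The same picture came from genes whose window width was within 20% of the member's, except that Six4 equalled their median. Of 802 genes with windows like that of Eya2, 95.6% had fewer than its 17 regions and 3.24% had more, with a median of 8. The Dach1 window lay at the other side, with 7 regions against a median of 14 over 301 genes, 87.0% of which had more. Pax3 had 2 regions against a median of 5 over 1792 genes, 81.8% of which had more. Eya1 had 4 against a median of 7 over 1129 genes, 71.8% of which had more. Pax7, with 7 regions, was above 66.6% of 1777 genes (median 5). Six4 and Six5, with 2 regions and 1, stood beside medians of 2 over 9501 and 9254 genes. These are descriptions of 7 chosen genes and were not tested.

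**Figure D3:**
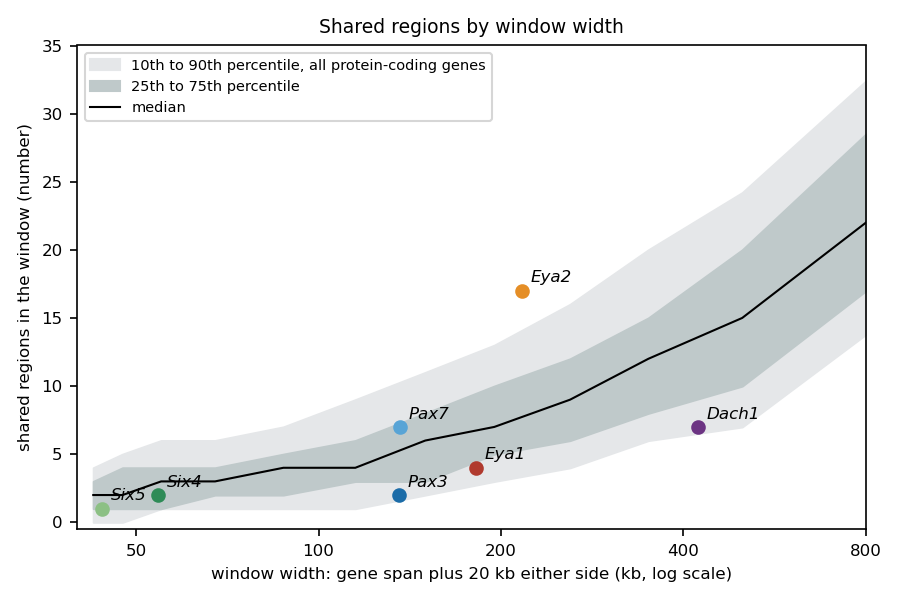
Number of shared regions in the window of each of the 7 genes (coloured points) against window width in kb on a log scale, over the percentiles of all protein-coding genes in classes of window width (grey bands, black line for the median). Eya2, with 17 regions, lies above the outer band, Pax7 lies above the median line, and Pax3, Six4, Six5, Eya1 and Dach1 lie below it.

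The shared part of the peaks at these genes had an interval that held the value of the whole list in both replicates. In replicate 1, 42 of 70 peaks in the 7 windows were shared (60%, 95% exact Clopper-Pearson interval 47.6 to 71.5%), against 67.2% over the whole list. In replicate 2, 43 of 91 were shared (47.3%, interval 36.7 to 58%), against 57.8% over the whole list, just inside the interval. The intervals cover counting error only and treat neighbouring peaks as independent. By gene, the shared part in replicate 1 ran from 40% at Pax3 (2 of 5) to 73.9% at Eya2 (17 of 23), leaving aside Six4 and Six5, whose 2 peaks each were all shared. In replicate 2 it ran from 30% at Pax3 (3 of 10) to 66.7% at Six4 (2 of 3). Replicate 2 had more unshared than shared peaks at Pax3, Pax7 and Eya1.

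**Figure D4:**
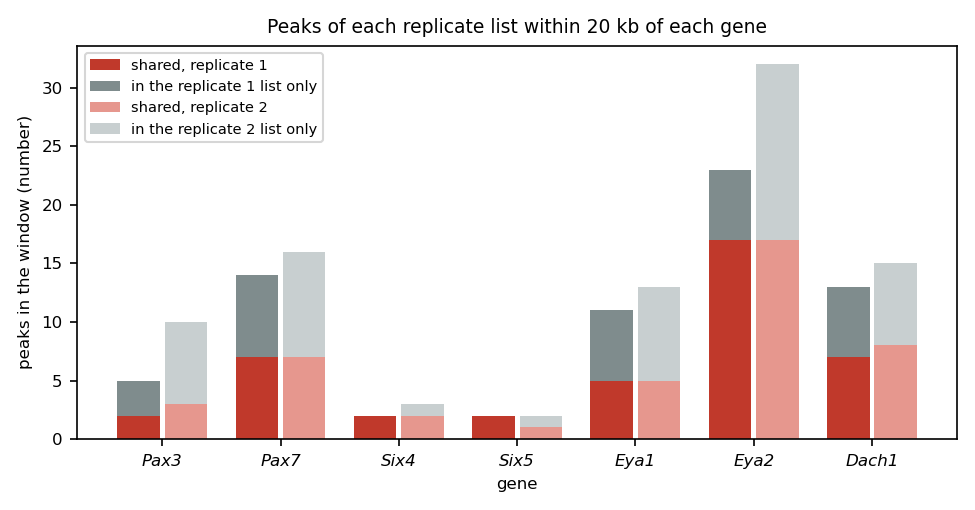
Number of peaks of each replicate list in the window of each gene, with the shared part at the bottom of each bar (red shades, dark for replicate 1) and the part found in 1 list above it (grey shades). Eya2 has the most peaks in both lists (23 and 32), and Six4 and Six5 have at most 3.

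Unshared peaks were not all weak. Of the 16 peaks of replicate 2 with at least 20-fold in these windows, 8 (50%) had no partner, against 10.7% of all peaks of that list with such a fold. Pax3, Pax7, Eya1 and Eya2 had 2 of the 8 each. At Eya2 they were a 21.9-fold peak whose border came within 2 bp of a replicate 1 peak and a 21-fold peak 272 bp from one, and 4 of the 8 lay within 1 kb of a replicate 1 peak. In replicate 1, 1 of 9 such peaks was unshared, against 7.71% of the whole list: a 21.5-fold peak inside Dach1, 17788 bp from the nearest peak of replicate 2. The smallest overlap that counted as shared was 48 bp, at Dach1.

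Most of the 40 shared regions fell short of 10-fold in at least 1 list. Their best peaks had a median fold of 9.71 in replicate 1 and 10.2 in replicate 2, against 11.0 and 12.0 over all shared regions. At least 10-fold in both lists was reached by 13 of the 40 (32.5%, against 45.2% of all regions), and at least 20-fold by 5 (12.5% against 20.5%). The 5 were the strongest regions of Pax3, Pax7, Eya1, Eya2 and Dach1, 1 in each gene. The median width of the 40 was 642.5 bp, against 749 bp over all regions. The best summits of both lists lay within 100 bp of each other in 31 of the 40, a count that was not taken over all regions. A region within 1 kb of a gene end was found at Pax3, Eya2 and Dach1, 3 of 7 genes, against 27.0% of protein-coding genes.

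**Figure D5:**
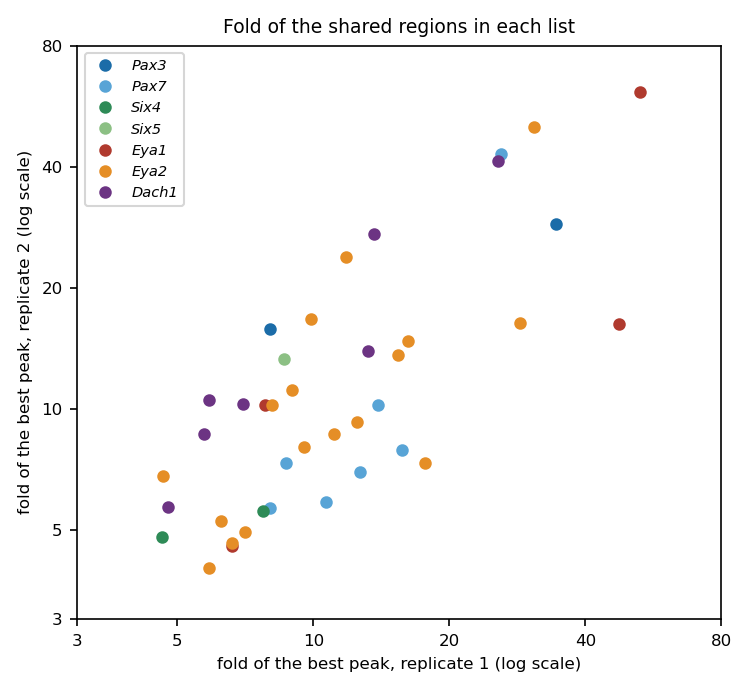
Fold of the best peak of each of the 40 shared regions in replicate 1 (horizontal, log scale) and in replicate 2 (vertical, log scale), coloured by gene. The 5 regions of at least 20-fold in both lists, at upper right, belong to Pax3, Pax7, Eya1, Eya2 and Dach1.

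The 20 kb limit left out regions just beyond it at Pax7, Six5, Eya2 and Dach1. The outermost region inside it at Pax7 lay 19783 bp from the gene (8.68-fold and 7.32-fold) and the nearest outside 23006 bp away (4.32-fold and 6.18-fold). At Dach1 the outermost region inside began 19673 bp from the gene and the nearest outside lay 23992 bp away (8.02-fold and 8.68-fold). The nearest outside Six5 lay 22724 bp away (15.4-fold and 11.4-fold), beside the single region counted there, and the nearest outside Eya2 lay 23325 bp away (16.2-fold and 13.6-fold). At Pax3 no further region lay within 54 kb, the nearest being 54374 bp from the gene (3.98-fold and 8.03-fold).

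Genes of the same families and of the same pathway were counted in the same way. Their windows differ in width from those of the members, and density falls as windows widen. Over all protein-coding genes, the median was 3 regions in windows of 50 to 60 kb and 6 in windows of 130 to 170 kb. The medians per 100 kb given here were not matched for width, so they are not like for like. Of 13 other genes of the families of PAX3, SIX4, EYA1 and DACH1, 12 had a shared region in their window, near the 89.6% of all protein-coding genes. Their median was 4.21 regions per 100 kb, against 2.27 for the 7 members (the value of Six5, from 1 region) and 4.27 for all genes. The strongest were at Pax2, a kidney and ear regulator (66.3-fold in replicate 1 and 69.2-fold in replicate 2), Pax6, the eye regulator (72.0-fold and 58.4-fold), and Six2, which keeps kidney progenitors (55.9-fold and 43.5-fold). Pax1, a gene of the developing spine, was the one without, having 2 peaks in each list that did not overlap. Among 17 genes that work with Pax3 and Pax7 in muscle precursors, all had a shared region, again beside 89.6% of protein-coding genes, with a median of 5.28 per 100 kb. The strongest of these were at Foxc2, a forkhead factor of the somite (51.8-fold and 51.7-fold), Cdh15, which encodes the M-cadherin of satellite cells (44.4-fold and 31.2-fold), and Met, the receptor gene that migrating muscle precursors need (47.1-fold and 27.8-fold).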

How the data were processed

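Per the submitters' processing notes, Bowtie2 2.3.2, Picard 2.9.2, MACS2 2.1.1 and mm10 were used by the authors. Parameters and the libraries behind each call were not given in the sources used here. Per peak, the deposited lists give the authors' fold (a ratio to background), −log10 q and the summit. Depth is unknown. A list's name matches a description that all samples of that replicate carry, whether probe pool or input, and it was taken as the authors' pooled result, with no SD or n. Tagmentation has sequence preferences that the lists do not allow to be corrected. Peaks were paired by an overlap of at least 1 bp, and paired peaks were joined into regions. Gene spans came from RefSeq, GRCm38.p6, on 21 chromosomes. All 7 members were named, with the 3 genes of each further list whose lower fold was highest. Some results that this rule covers are not reported here. The members and lists were chosen with earlier results of these data known. With 2 lists of 1 condition no test was run. The pairing code was tested on simulated data. Alternatives were other windows, thresholds, pairing rules and either list alone. Tables were handled with pandas 2.3.3 and numpy 2.4.6 under Python 3.11.15, intervals came from scipy 1.17.1, and plots from matplotlib 3.10.9.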

Additional observations from a re-analysis of the deposited data

How the results depend on the processing

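The number of genes with a shared region was 6 or 7 under every other window, threshold and pairing rule but 1. Under these, most protein-coding genes had one too (97.7% with 50 kb, 88% at −log10 q of at least 5, 85.9% at 5-fold, 84.5% by summits, 81.3% by reciprocal overlap). Among the 10000 peaks of each list with the highest −log10 q, only Eya1 kept a region, 1 in all, against 20.6% of protein-coding genes with one. The shared part there was 50% of replicate 1 peaks and 20% of replicate 2 peaks, both resting on few peaks. Windows of 50 kb gave 68 regions in place of 40. Counting peaks of one list, shared or not, gave 70 in replicate 1 and 91 in replicate 2. All 7 genes then had a peak, as did 94.7% of protein-coding genes in replicate 1 and 96.0% in replicate 2. A reciprocal overlap of 50% lowered the shared part to 44.3% in replicate 1 and 34.1% in replicate 2, and left Six5 without a region. Summits within 200 bp gave 47.1% in replicate 1. The shared part of the whole lists was not counted under these other rules. These percentages therefore cannot be set against the 67.2% and 57.8% of the whole lists, which are for an overlap of 1 bp. Of 36 values over all 7 genes, the counts from one list alone included, 27 stayed within 1.5 times the main count or inside the interval of the main percentage. The other 9 moved. Of 70 counts by single gene, 27 moved: Pax7 went from 7 to 16 and Six5 from 1 to 4 with 50 kb, Eya1 from 4 to 2 in the span alone, and Dach1 from 7 to 4 by reciprocal overlap. No paired analysis was possible because each replicate has 1 deposited list for its probe pools and input together. Read depth is unknown, so a gene or stretch without a peak has no peak in these lists, and weaker signal there was not measured.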

Other observations

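Of the neighbours within the windows, Dmpk, the gene whose repeat expansion causes myotonic dystrophy and which lies directly beside Six5, overlapped no peak of either list, and neither did Dmwd on its far side. The long non-coding RNA gene Gm46873, which overlaps the higher-coordinate end of Pax7 and runs from 139833178 to 139852920, held 2 peaks of replicate 2 and none of replicate 1. Gm33152 beside Pax3 and Gm42334 beside Pax7, both long non-coding RNA genes, had none. Zmynd8, a chromatin reader gene whose end reaches the Eya2 window, had 1 peak of replicate 2 within that window.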
